A study of Mus musculus with 24 samples.

Results

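The endothelial identity genes described here are 8 genes whose products mark the cells that line blood vessels: *Pecam1*, *Cdh5*, *Kdr*, *Flt1*, *Tek*, *Tie1*, *Vwf* and *Eng*. They were chosen by name as textbook endothelial markers, with earlier results of these data known, and all 8 were found among the 16730 genes of the deposited count table. RNA from epididymal white adipose tissue (eWAT, the fat pad beside the testis) of 24 male mice was measured by QuantSeq, which reads 1 short tag near the 3′ end of each transcript. There were 4 groups of 6 mice, with 1 library per mouse: *Lama4* fl/fl mice and *Lama4* AKO mice, each genotype either on breeder chow or on a high-fat diet (HFD). All 4 groups carried floxed alleles of *Lama4*, the laminin alpha 4 gene, with loxP sites around exon 3, and the AKO mice also carried adiponectin-Cre, which is active in adipocytes and leaves the endothelial cells of the same pad with the floxed gene. The fl/fl mice were littermates without Cre. The HFD held 45% fat, and either diet was given for 20 weeks, and tissue was taken at 24 to 26 weeks of age.

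White fat is crossed by a dense capillary bed, and endothelial cells there deliver oxygen and lipid to adipocytes. PECAM1 and VE-cadherin (*Cdh5*) hold neighbouring endothelial cells together. The receptors VEGFR2 (*Kdr*) and VEGFR1 (*Flt1*) bind vascular endothelial growth factors, of which adipocytes are a source, TIE2 (*Tek*) binds angiopoietins with its partner TIE1, endoglin (*Eng*) is a co-receptor of the TGF-beta family, and von Willebrand factor (*Vwf*) is the clotting protein that endothelial cells store and release. Laminin alpha 4 lies in the basement membranes of both adipocytes and capillaries.

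The libraries held 5579590 to 18764516 counts, and every library had counts of every member. Levels are given as CPM, counts set to a common library total after scaling by the TMM factor of each library. Adipocyte markers (8 genes, *Adipoq* among them) summed to 2806 to 18962 CPM, and 3 measured genes of the epididymal epithelium summed to between 0 and 21.02 CPM. The first principal component of log2 CPM held 45.8% of the variance. The HFD-fed *Lama4* fl/fl libraries lay on both sides of it: replicates 1, 2 and 5 scored 73.5, 48.3 and 48.2, and replicates 3, 4 and 6 scored -9.88, -76.1 and -60.4. Both chow-fed groups did so too, from -91.8 to 46.8 in fl/fl and from -74.8 to 22.1 in AKO mice. HFD-fed AKO libraries scored from 0.85 to 61.5. The study set libraries apart on such an analysis, which libraries is not given in the sources used here, and an earlier analysis of these data inferred the set as chow-fed fl/fl replicate 3, chow-fed AKO replicate 5 and HFD-fed fl/fl replicates 3, 4 and 6. Fits of the members that rest on these libraries are given with all 24 and with the other 19, and those of the gene lists with all 24 only.

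*Lama4* itself lay between 41.2 and 196 CPM in chow-fed fl/fl libraries, with a median of 91.7, and between 64.2 and 133 CPM with a median of 113 in the chow-fed libraries labelled AKO. On HFD the range was 32.4 to 135 CPM with a median of 78.7 in fl/fl libraries and 36.4 to 92.5 with a median of 44.3 in AKO libraries. The ranges overlapped on both diets. The log2 difference of AKO from fl/fl was 0.11 (SE 0.34, adjusted p = 0.98) on chow and -0.69 (SE 0.35, adjusted p = 0.35) on HFD by edgeR. With 19 libraries the difference on HFD was 0.14 (adjusted p = 0.94 by edgeR). The tags were not located relative to exon 3, and whether its loss lowers the whole transcript was not tested. These counts alone do not show the deletion, and the genotypes are those of the labels.

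The members lie on 6 chromosomes of the mouse genome (GRCm38), each deposited position being that of GENCODE release 21. *Pecam1* (ENSMUSG00000020717) spans chr11:106654217-106750628 on the reverse strand and *Cdh5* (ENSMUSG00000031871) chr8:104101625-104144511 on the forward strand. *Kdr* (ENSMUSG00000062960) and *Flt1* (ENSMUSG00000029648) both lie on the reverse strand of chromosome 5, at 75932827-75978458 and 147561604-147726011. *Tek* (ENSMUSG00000006386) spans chr4:94739289-94874976 on the forward strand and *Tie1* (ENSMUSG00000033191) chr4:118471191-118490061 on the reverse strand. *Vwf* (ENSMUSG00000001930) spans chr6:125546774-125686679 and *Eng* (ENSMUSG00000026814) chr2:32646595-32682669, both on the forward strand. *Eng* overlaps *Fpgs* on the opposite strand and the small gene *Gm26236* on its own strand, and whether the counting used strand is not given in the sources used here, so reads of these genes may not be fully separated. *Flt1* also gives a short transcript for a soluble receptor, which a count per gene does not separate.

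Promoters are shown for *Kdr*, *Flt1*, *Tek*, *Tie1* and *Eng*, the 5 members with an entry in the promoter table used here, so that genes of 1 cell type can be set side by side. *Pecam1*, *Cdh5* and *Vwf* are not shown. They are RefSeq sequences of GRCm38.p6, 5′ to 3′ on the strand of the gene, from 250 bases before to 50 bases after the start of the gene. Capitals mark the hexamers CAGGAA and CCGGAA, searched on both strands, so that TTCCTG and TTCCGG are the same hexamers on the other strand. Both hold GGAA, the core bound by ETS factors, which are known regulators of endothelial genes, and the pair cannot match at the same place. *Tek* held CAGGAA at 2 places, starting 89 and 59 bases before the gene start, and *Kdr* held CCGGAA at 1 place, 153 bases before it. *Tie1* held CAGGAA 209 bases before its RefSeq start, which lies 212 bases inside the deposited gene, so that this match is at the deposited start. *Eng* held it 5 bases after the start, while neither hexamer was in the *Flt1* window. That window does hold the core GGAA between other letters, which were not counted here. Of 32851 mouse promoters of this length, 30.6% held CAGGAA and 14.9% held CCGGAA. The GATA-type letters AGATAA were in 11.2% of promoters and among these 5 in *Tek* only, and the letters of the TATA box, TATAAA, were in 13.6% and among these 5 in *Flt1* only. These matches are letters in a window, not measured binding.
Kdr: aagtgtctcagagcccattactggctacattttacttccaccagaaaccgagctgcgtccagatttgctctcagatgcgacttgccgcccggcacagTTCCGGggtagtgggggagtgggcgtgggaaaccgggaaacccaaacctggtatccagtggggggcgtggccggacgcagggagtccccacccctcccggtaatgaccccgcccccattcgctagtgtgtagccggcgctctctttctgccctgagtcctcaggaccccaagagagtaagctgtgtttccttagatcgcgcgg
Flt1: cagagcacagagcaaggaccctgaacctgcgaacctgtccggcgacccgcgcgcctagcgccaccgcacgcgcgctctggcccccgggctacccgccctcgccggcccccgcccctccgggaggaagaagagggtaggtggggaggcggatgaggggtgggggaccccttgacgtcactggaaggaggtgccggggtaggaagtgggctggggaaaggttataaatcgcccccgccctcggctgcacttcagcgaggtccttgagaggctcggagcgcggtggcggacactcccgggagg
Tek: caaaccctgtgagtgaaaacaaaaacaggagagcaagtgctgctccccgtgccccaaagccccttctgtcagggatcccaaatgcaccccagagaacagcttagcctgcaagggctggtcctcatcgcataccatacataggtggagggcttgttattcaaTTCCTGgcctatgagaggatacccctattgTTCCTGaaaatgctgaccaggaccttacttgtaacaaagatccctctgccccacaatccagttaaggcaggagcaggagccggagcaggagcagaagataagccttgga
Tie1: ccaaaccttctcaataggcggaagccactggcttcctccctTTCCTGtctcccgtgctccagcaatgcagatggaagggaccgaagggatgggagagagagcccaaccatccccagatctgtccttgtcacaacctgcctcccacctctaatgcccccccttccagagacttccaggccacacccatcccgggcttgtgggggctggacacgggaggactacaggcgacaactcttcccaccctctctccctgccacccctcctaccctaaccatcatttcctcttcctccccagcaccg
Eng: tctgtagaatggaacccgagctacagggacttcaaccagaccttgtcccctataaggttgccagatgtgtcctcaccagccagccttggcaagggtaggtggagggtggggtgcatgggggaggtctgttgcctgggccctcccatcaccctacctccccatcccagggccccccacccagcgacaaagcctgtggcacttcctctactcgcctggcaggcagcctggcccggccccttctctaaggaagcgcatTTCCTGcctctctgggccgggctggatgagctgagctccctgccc

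The first question was what HFD did to these genes in each genotype. In *Lama4* fl/fl mice, 0 of 8 members met the study's criteria for a changed gene, namely a nominal p up to 0.001, a change of 1.5-fold or more and 2 CPM or more on average in whichever group was higher, in an edgeR quasi-likelihood fit of all 24 libraries. Of 15020 genes tested, 26 (0.173%) met them. *Eng* alone had an unadjusted p under 0.05, beside 9.01% of all genes, and limma-voom and DESeq2 also called 0 members. In *Lama4* AKO mice, 0 of 8 members met the criteria beside 4.12% of all genes, but 6 of 8 had an unadjusted p under 0.05 with lower levels on HFD, beside 21.6% of all genes that were lower at that threshold. Fewer endothelial cells and less of these transcripts per cell cannot be told apart in RNA of a whole pad. In the plot of levels, the median of chow-fed AKO mice is the highest and that of HFD-fed AKO mice the lowest of the 4 groups for 6 of the 8 genes.

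**Figure D1:**
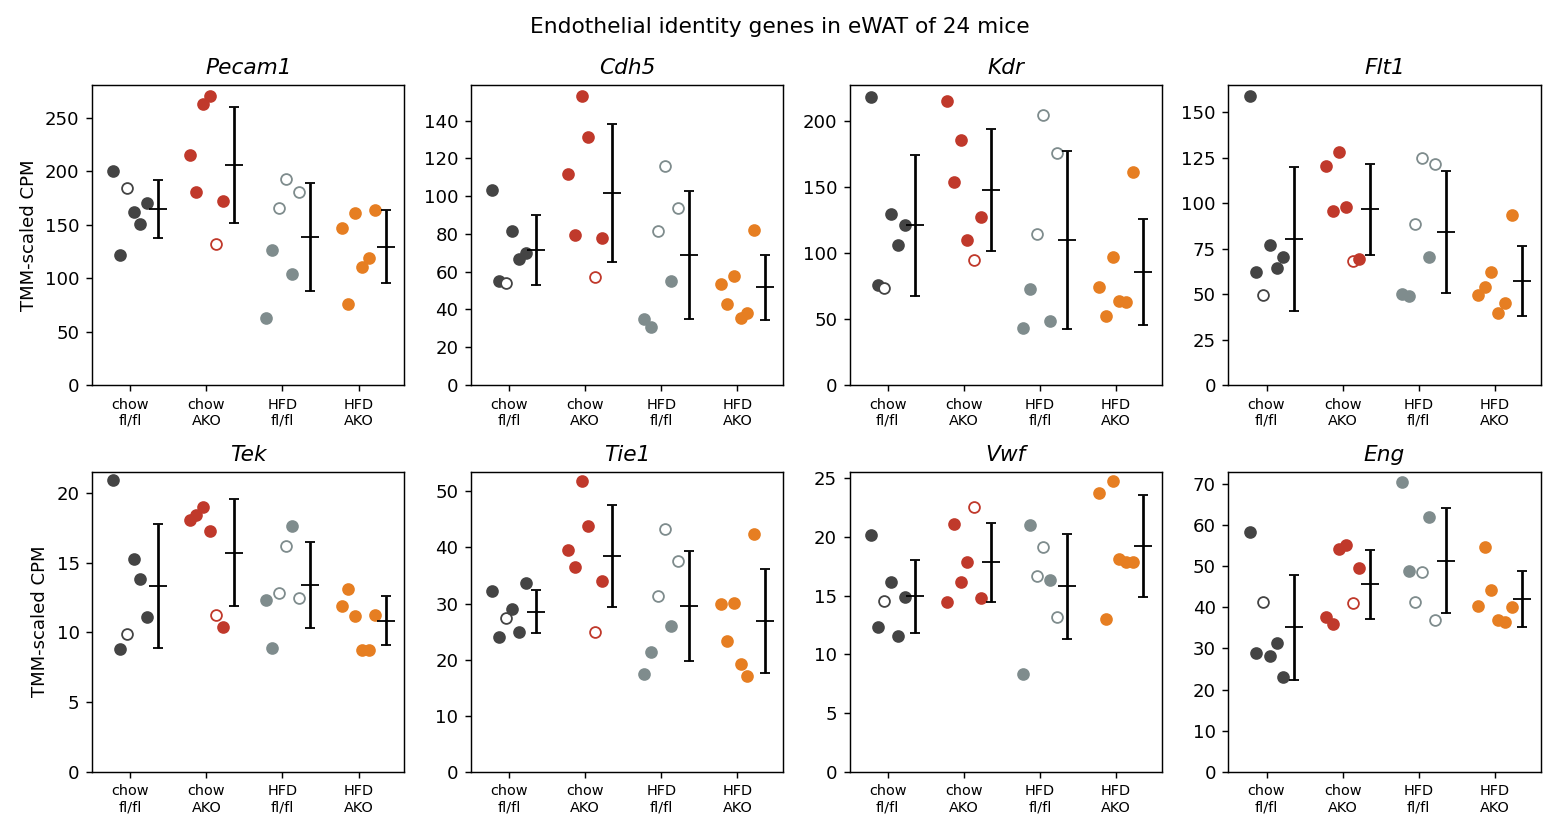
TMM-scaled CPM (linear axis from 0) of each member in each library by group, with the mean and SD of 6 libraries beside the points. Open circles are the 5 libraries outside the set of 19. The HFD-fed fl/fl libraries spread from 30.8 to 116 CPM for *Cdh5*, with the 3 open circles above the 3 filled ones, and for *Eng* the open circles lie below.

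Among the junction genes, *Cdh5* lay between 57.0 and 153 CPM in chow-fed AKO mice, with a median of 95.7, and between 35.6 and 82.0 with a median of 48.2 in HFD-fed AKO mice. Chow-fed AKO replicates 1 to 6 held 112, 79.6, 153, 132, 57.0 and 77.9 CPM, and HFD-fed AKO replicates 53.6, 42.8, 57.7, 35.6, 38.2 and 82.0 CPM. HFD-fed replicate 6 lay above chow-fed replicates 2, 5 and 6, and HFD-fed replicate 3 above chow-fed replicate 5, so the groups overlapped. The log2 fold change of HFD against chow was -0.98 (SE 0.30, adjusted p = 0.029 by edgeR over all genes), which passed an adjusted p of 0.05 though not the nominal criterion. Without HFD-fed replicate 6 the value was -1.17 and the gene met the criteria, though the share of all genes meeting them in that fit was not computed. *Cdh5* in fl/fl mice ranged from 54.0 to 103 CPM (median 68.3) on chow and from 30.8 to 116 CPM (median 68.3) on HFD, a log2 fold change of -0.06 (SE 0.30, adjusted p = 0.96).

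*Pecam1*, whose product is the adhesion molecule CD31 used to stain vessels, ranged from 132 to 270.3 CPM (median 198) in chow-fed AKO mice and from 75.9 to 163 CPM (median 133) in HFD-fed AKO mice. The ranges overlapped, and the log2 fold change was -0.67 (SE 0.24, adjusted p = 0.046 by edgeR). It was the other member with an adjusted p of at most 0.05 here, a level that 16.1% of all genes reached together with the fold and CPM criteria. In fl/fl mice *Pecam1* ranged from 122 to 199.8 CPM on chow (median 166) and from 62.4 to 193 on HFD (median 146), with a log2 fold change of -0.25 (SE 0.24, adjusted p = 0.77).

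The VEGF receptors overlapped between diets in AKO mice too. *Kdr*, which carries the main growth signal of VEGF-A, ranged from 94.8 to 216 CPM (median 141) in chow-fed AKO mice and from 52.5 to 162 CPM (median 69.1) in HFD-fed AKO mice, a log2 fold change of -0.79 (SE 0.36, adjusted p = 0.11 by edgeR). *Flt1*, a high-affinity receptor that also acts as a trap for VEGF-A, ranged from 68.3 to 128 CPM (median 96.7) and from 39.6 to 93.4 CPM (median 51.7) in the same groups, a log2 fold change of -0.75 (SE 0.28, adjusted p = 0.058). For both genes HFD-fed AKO replicate 6 was the highest of its group and lay within the chow-fed range. In fl/fl mice the log2 fold changes were -0.14 (SE 0.36) for *Kdr* and 0.07 (SE 0.28) for *Flt1*. *Kdr* spanned 73.7 to 219 CPM in chow-fed fl/fl mice (median 114) and 43.4 to 205 CPM in HFD-fed fl/fl mice (median 93.7), and *Flt1* 49.6 to 159 (median 67.3) and 49.1 to 125 CPM (median 79.5).

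The number of *Flt1* tags per *Kdr* tag, taken within each library, ranged from 0.578 to 0.816 in chow-fed fl/fl mice, 0.543 to 0.885 in chow-fed AKO mice, 0.611 to 1.44 in HFD-fed fl/fl mice and 0.578 to 1.03 in HFD-fed AKO mice. The 4 ranges overlapped. The largest difference in the mean log2 ratio was 0.36, higher on HFD in fl/fl mice (two-sided exact permutation test, p = 0.15, adjusted p = 0.93 over 8 tests). For the number of *Tie1* tags per *Tek* tag the 4 differences lay between -0.05 and 0.16 (exact permutation, adjusted p = 0.997 in each). With 19 libraries, where HFD-fed fl/fl mice number 3, *Flt1* to *Kdr* differed by 0.66 on HFD in fl/fl mice and by -0.58 between AKO and fl/fl mice on HFD, and *Tie1* to *Tek* by -0.31 and 0.49 (exact permutation, adjusted p of at least 0.32 over 8 tests). No difference in these ratios passed the test with either set of libraries. With only 3 HFD-fed fl/fl mice, too few arrangements exist for any single difference to pass the adjustment over 8 tests. The comparisons with that group among the 19 libraries therefore cannot decide whether the ratios differ.

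The TIE receptors were measured at lower counts. *Tek* ranged from 10.4 to 18.99 CPM (median 17.7) in chow-fed AKO mice and from 8.72 to 13.1 CPM (median 11.2) in HFD-fed AKO mice, a log2 fold change of -0.54 (SE 0.21, adjusted p = 0.061 by edgeR). *Tie1* ranged from 24.9 to 51.8 CPM (median 38.05) and from 17.0 to 42.4 CPM (median 26.5), a log2 fold change of -0.51 (SE 0.22, adjusted p = 0.09). Both pairs of groups overlapped, *Tek* through chow-fed replicates 5 and 6, the lowest of their group. In fl/fl mice the log2 fold changes were 0.01 (SE 0.21) for *Tek*, which ranged from 8.83 to 20.9 CPM on chow and from 8.91 to 17.6 CPM on HFD, and 0.05 (SE 0.22) for *Tie1*, which ranged from 24.1 to 33.7 and from 17.5 to 43.2 CPM.

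*Vwf* and *Eng* gave other values. *Vwf* ranged from 14.5 to 22.5 CPM (median 17.0) in chow-fed AKO mice and from 13.1 to 24.8 CPM (median 18.01) in HFD-fed AKO mice, a log2 fold change of 0.11 (SE 0.20, adjusted p = 0.68 by edgeR). In fl/fl mice it ranged from 11.5 to 20.2 CPM on chow and from 8.38 to 21.01 CPM on HFD, a log2 fold change of 0.08 (SE 0.20). The 4 group medians of *Vwf* lay between 14.7 and 18.01 CPM, and every group overlapped every other.

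With 24 libraries *Eng* was the member with the largest difference between diets in fl/fl mice. Chow-fed fl/fl replicates 1 to 6 held 58.2, 28.9, 41.2, 28.1, 31.2 and 23.0 CPM, and HFD-fed fl/fl replicates 70.6, 48.8, 41.2, 48.5, 62.0 and 36.9 CPM. All HFD-fed libraries lay above the chow-fed median of 30.1, but chow-fed replicates 1 and 3 lay within their range. The log2 fold change was 0.55 (SE 0.20, adjusted p = 0.45 by edgeR), and without chow-fed replicate 1 it was 0.75 and met the criteria. The share of all genes meeting them in that fit was not computed. In AKO mice *Eng* ranged from 36.02 to 55.1 CPM on chow and from 36.4 to 54.8 CPM on HFD, a log2 fold change of -0.11 (SE 0.20, adjusted p = 0.69). Tags of *Eng* per tag of *Cdh5*, a ratio chosen after the values were seen and given without a test, had medians of 0.496 and 0.436 in chow-fed fl/fl and AKO mice and of 0.816 and 0.860 in HFD-fed fl/fl and AKO mice. In HFD-fed fl/fl mice that ratio ran from 0.393 to 2.01.

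None of the 8 members had groups that did not overlap. In the whole table the share of such genes was 0.213% for HFD against chow in fl/fl mice, 6.86% in AKO mice, 0.533% for AKO against fl/fl on HFD and 0.260% on chow.

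The diet comparison depended on which libraries were used. The HFD-fed fl/fl libraries outside the set of 19 had higher levels than the 3 that remained for 5 members and lower levels for *Eng*, and overlapped them for *Tek* and *Vwf*. *Kdr*, for example, lay at 114 to 205 CPM in replicates 3, 4 and 6 and at 43.4 to 73.0 CPM in replicates 1, 2 and 5. With 19 libraries the log2 fold changes in fl/fl mice were -1.25 (SE 0.37, adjusted p = 0.017 by edgeR) for *Kdr*, -0.90 (SE 0.29, adjusted p = 0.028) for *Cdh5*, -0.72 (SE 0.26, adjusted p = 0.042) for *Pecam1* and 0.84 (SE 0.24, adjusted p = 0.014) for *Eng*. None of these 8 members met the nominal criteria, beside 11.8% of 14863 genes, while 4 reached an adjusted p of 0.05 with the fold and CPM criteria, beside 22.9%. In AKO mice the 19 libraries gave -1.10 (SE 0.24, adjusted p = 0.0018) for *Cdh5*, which met the criteria beside 9.57% of all genes that fell. Averaged over genotypes, 0 of 8 members met them with 24 libraries (2.25% of all genes), and 3 fell with 19 (as did 12.5% of all genes): *Kdr* by 1.07, *Cdh5* by 1.001 and *Pecam1* by 0.75 on the log2 scale. The set of 19 was inferred from these same libraries, so its values are not an independent check.

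**Figure D2:**
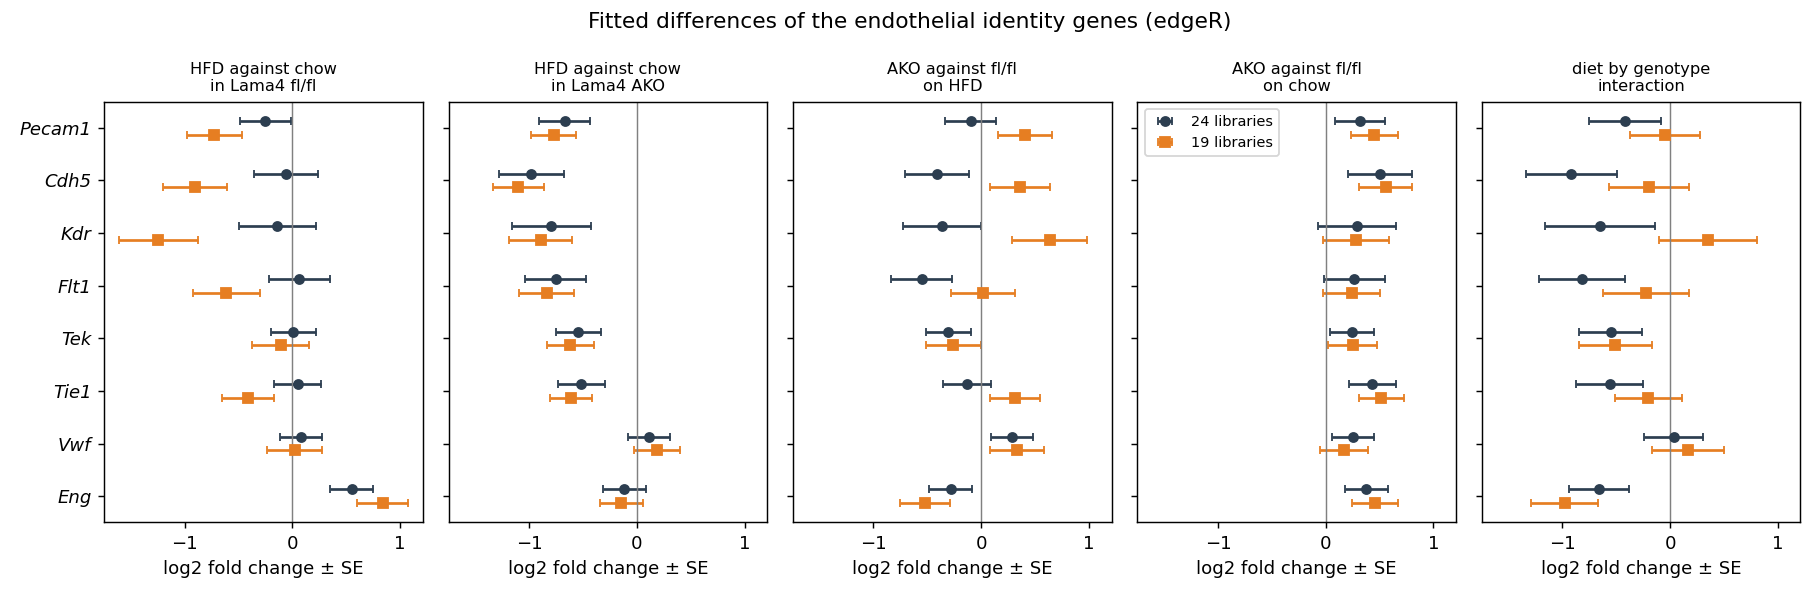
Log2 fold change with its standard error (horizontal axis) of each member (vertical axis) in 5 comparisons, fitted with 24 libraries (circles) and 19 libraries (squares). In HFD against chow in AKO mice both sets lie left of 0 for every member but *Vwf*, with *Eng* close to 0. In AKO against fl/fl on HFD the squares and circles lie on opposite sides of 0 for *Pecam1*, *Cdh5*, *Kdr*, *Flt1* and *Tie1*.

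The second question was what adipocyte deletion of *Lama4* did to these genes within a diet. On chow 0 of 8 members met the criteria, beside 17 of 15020 genes (0.113%), and 0 had an unadjusted p under 0.05, beside 5.85% of all genes. limma-voom and DESeq2 called 0 as well. With 19 libraries 0 met the criteria and 3 had an unadjusted p under 0.05, all higher in AKO mice, beside 4.48% of all genes that were higher at that threshold: *Cdh5* (0.56, SE 0.25), *Tie1* (0.52, SE 0.21) and *Eng* (0.46, SE 0.21), with adjusted p-values of edgeR of at least 0.53. At that threshold limma-voom gave *Eng*, and the replicate block, fitted on 24 libraries, *Tie1* and *Eng*. What share of all genes reached it in those fits is not given here. With 24 libraries all 8 log2 differences of AKO from fl/fl were above 0, from 0.25 (*Tek*, SE 0.21, and *Vwf*, SE 0.20) to 0.51 (*Cdh5*, SE 0.30), and the 8 genes share the same 12 libraries. *Cdh5* was at 71.7 ± 18.5 CPM (SD, n = 6) in chow-fed fl/fl mice and at 102 ± 36.5 CPM (SD, n = 6) in chow-fed AKO mice, and *Tie1* at 28.5 ± 3.86 and 38.4 ± 9.10 CPM. The adjusted p-values of edgeR lay between 0.88 and 0.96.

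On HFD 0 of 8 members met the criteria, beside 0.173% of all genes, and 0 had an unadjusted p under 0.05 by edgeR, beside 14.8%. By DESeq2, and by edgeR with 19 libraries, 1 member had one in each fit. The share of all genes in those fits is not given here. Neither limma-voom nor DESeq2 called any member. The log2 differences of AKO from fl/fl lay between -0.55 (*Flt1*, SE 0.28, adjusted p = 0.35) and -0.10 (*Pecam1*, SE 0.24) for 7 members and at 0.29 (SE 0.20, adjusted p = 0.47) for *Vwf*. *Flt1* was at 84.1 ± 33.6 CPM (SD, n = 6) in HFD-fed fl/fl mice and at 57.3 ± 19.3 CPM (SD, n = 6) in HFD-fed AKO mice. With 19 libraries the sign turned for *Pecam1* (0.41), *Cdh5* (0.36), *Kdr* (0.64), *Flt1* (0.02) and *Tie1* (0.32), with adjusted p-values of at least 0.53, so no direction on HFD held across the sets of mice for these 5 genes. Averaged over diets, 0 members met the criteria beside 0.0333% of all genes, and 0 had an unadjusted p under 0.05 beside 4.6%. With 19 libraries *Pecam1*, *Cdh5* and *Tie1* had one, beside 7.51% of all genes, and 0 met the criteria.

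The test of whether the diet effect differed between genotypes gave no member that met the criteria, beside 0.386% of all genes. *Cdh5* (-0.92, SE 0.42, adjusted p = 0.30 by edgeR) and *Eng* (-0.66, SE 0.28, adjusted p = 0.28) had an unadjusted p under 0.05, as did 15.6% of all genes. The other interaction terms, coded as the diet effect in AKO less that in fl/fl mice, were -0.82 (SE 0.40) for *Flt1*, -0.65 (SE 0.51) for *Kdr*, -0.56 (SE 0.31) for *Tie1*, -0.55 (SE 0.29) for *Tek*, -0.42 (SE 0.33) for *Pecam1* and 0.03 (SE 0.28) for *Vwf*. With 19 libraries the term of *Cdh5* was -0.20 (SE 0.37) and that of *Kdr* 0.35 (SE 0.46), while that of *Eng* was -0.98 (SE 0.31, adjusted p = 0.20). Lower levels on HFD in AKO mice are therefore not shown to be particular to that genotype.

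Other endothelial and vascular genes were read in the same comparison, HFD against chow in AKO mice, where the median log2 fold change of all 15020 genes was -0.003 and that of the 8 members -0.60. The criteria for a changed gene were met by 2.83% of all genes with lower and 1.29% with higher levels on HFD, against which the counts of single called genes that follow are to be read. Of 20 other endothelial-enriched genes 1 fell, 0 rose and the median was -0.49. The gene that fell was *Myct1*, an endothelial gene known from work on blood vessel growth (-1.21, SE 0.28, adjusted p = 0.015 by edgeR), from a median of 19.6 CPM in chow-fed AKO mice to 7.37 CPM in HFD-fed AKO mice. Of 9 arterial genes 1 fell and the median was -0.87: *Efnb2*, the arterial ephrin, by 1.92 (SE 0.49, adjusted p = 0.018), from a median of 8.43 to 2.11 CPM. Of 5 venous genes that passed the filter on low counts 1 fell and the median was -0.40: *Nr2f2*, the venous nuclear receptor also present in other stromal cells, by 0.80 (SE 0.20, adjusted p = 0.017), from a median of 105 to 62.2 CPM. None of the 10 capillary genes was called, with a median of -0.77, and the lowest p was that of *Timp4* at -2.44 (SE 0.72, adjusted p = 0.026). Of 6 lymphatic genes that passed it 0 were called and the median was -0.38, with *Lyve1* at -1.56 (SE 0.53, adjusted p = 0.040).

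Of 13 endothelial transcription factors 1 rose and 0 fell, with a median of -0.11. It was *Gata2*, which is active in endothelial cells and also in blood progenitors and adipocyte precursors, at 1.27 (SE 0.25, adjusted p = 0.012 by edgeR), from a median of 6.18 to 15.9 CPM. Averaged over genotypes *Gata2* also rose, by 0.92 (SE 0.17, adjusted p = 0.011), and *Myct1* fell by 0.74 (SE 0.19, adjusted p = 0.029). Among 8 ligands of the VEGF and angiopoietin families 0 were called and the median was -0.53: *Vegfa*, the ligand of *Kdr* and *Flt1*, was at -1.45 (SE 0.41, adjusted p = 0.024). Among 8 tested partners of the receptors 0 were called and the median was 0.55, with *Tgfbr1*, a TGF-beta receptor, at 1.07 (SE 0.29, adjusted p = 0.022). With 24 libraries no gene of the 18 lists was called between diets in fl/fl mice or between genotypes on either diet. None was called for the interaction either. Values of the lists with 19 libraries are not given here. Over all genes, those called between diets in fl/fl mice numbered 26 (0.173%) with 24 libraries and 1750 (11.8%) with 19. The list changes in AKO mice are therefore not shown to be particular to that genotype.

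**Figure D3:**
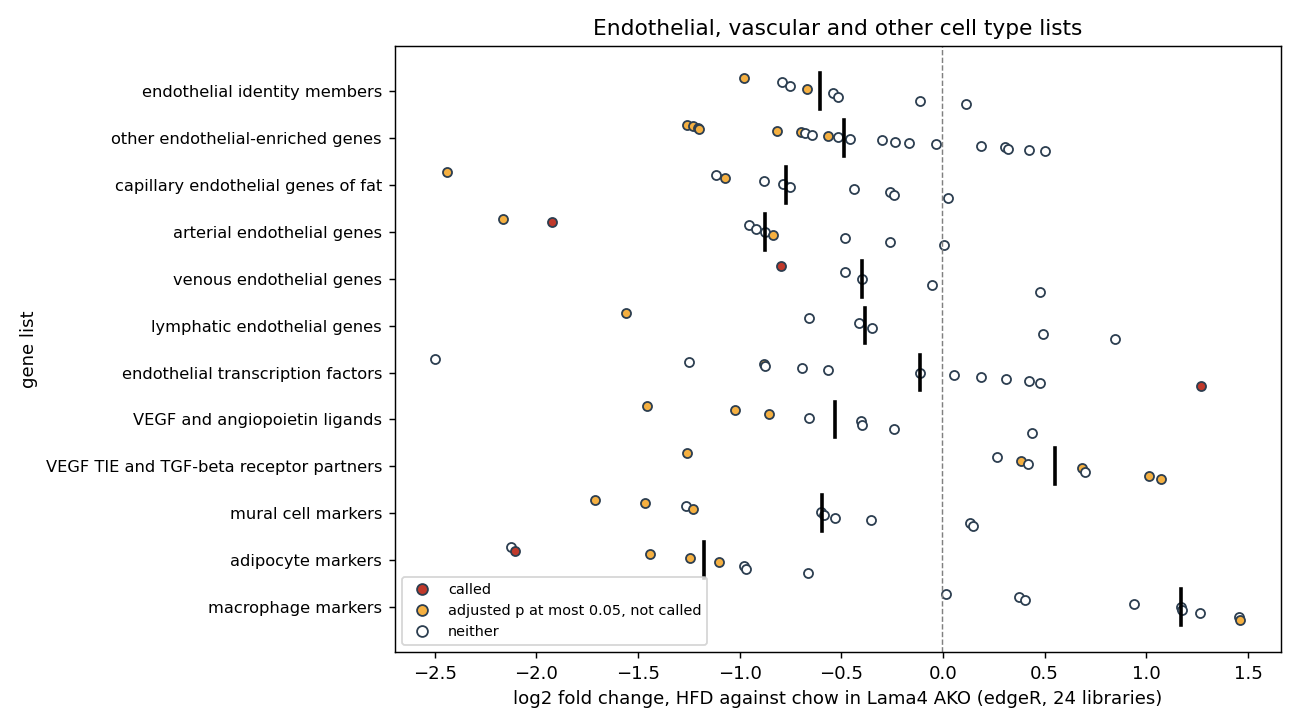
Log2 fold change of HFD against chow in AKO mice (horizontal axis, 24 libraries) for each gene of 12 lists (vertical axis), with the list median as a bar and the median of all genes as a dashed line. The members lie between -0.98 and 0.11 with a median of -0.60, the adipocyte markers have a median of -1.17 and the macrophage markers of 1.17.

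Markers of other cells moved in this comparison too. The adipocyte list summed to 4316 to 15711 CPM in chow-fed AKO mice and 3069 to 6811 CPM in HFD-fed AKO mice, and 1 of its 8 genes fell: *Lep*, the hormone leptin, by 2.10 (SE 0.51, adjusted p = 0.017 by edgeR), with a list median of -1.17. The macrophage list summed to 2054 to 7909 and 6380 to 12105 CPM, with a median of 1.17 and 0 of 9 genes called. The mural list, genes of pericytes and smooth muscle, summed to 413 to 1550 and 312 to 535 CPM, with a median of -0.59 and 0 of 10 called, *Rgs5* being at -1.23 (SE 0.35, adjusted p = 0.025). The summed members ran from 452 to 871 CPM and from 329 to 612 CPM in the same groups. *Cd68*, the macrophage gene with the lowest p, was at 1.46 (SE 0.53, adjusted p = 0.049). The part of these cell types in the members' values was not tested.

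In the other lists 1 of 4 platelet genes that passed the filter on low counts fell, *Ppbp* (-1.32, SE 0.31, adjusted p = 0.016 by edgeR), 1 of 7 stromal progenitor genes rose, *Pdgfra* (0.69, SE 0.18, adjusted p = 0.021), and 1 of 6 mesothelial genes fell, *Msln* (-2.36, SE 0.60, adjusted p = 0.019). Platelets carry von Willebrand factor as well, and the platelet list had a median of 0.65, and the 5 of its genes in the table had summed levels of 192 to 416 CPM on chow and 219 to 510.1 CPM on HFD. Nearly all of that sum was *Pf4*, with means of 284 CPM on chow and 348 CPM on HFD, beside summed means of 294 and 366 CPM. *Ppbp* had means of 2.83 and 1.13 CPM. The sum is therefore close to a reading of 1 gene, and platelet content was not tested. None of 8 lymphocyte genes (median 0.36, lowest p *Cd79a* at 1.58, SE 1.08) and none of 5 red blood cell genes (median -0.27, lowest p *Hbb-bt* at -0.33, SE 0.36) was called, and 0 of 6 epididymal genes passed the filter on low counts.

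The third question was whether the members vary together between mice of a group. Each gene's log2 CPM was centred on its group mean and pairs were correlated over the 24 libraries. Of 28 pairs 13 had an adjusted p of at most 0.05 for both Pearson's r and Spearman's rho (permutation within groups), and all 13 were among the 15 pairs of *Pecam1*, *Cdh5*, *Kdr*, *Flt1*, *Tek* and *Tie1*, whose r ran from 0.30 to 0.91 with a median of 0.79. *Cdh5* with *Tie1* had r = 0.91 and rho = 0.92, and r = 0.92 without the 2 libraries farthest from the median of *Cdh5*. *Cdh5* with *Flt1* had r = 0.90 and rho = 0.95 (0.88 without 2 libraries), and the VEGF receptors *Kdr* and *Flt1* had r = 0.87 and rho = 0.84 (0.83 without 2 libraries). The TIE receptors *Tek* and *Tie1* had r = 0.50 and rho = 0.49 (0.53 without 2, permutation, adjusted p = 0.018 for r and 0.042 for rho). The 2 pairs of these 6 genes that missed the threshold were *Pecam1* with *Tek* (r = 0.30, rho = 0.32) and *Kdr* with *Tek* (r = 0.42, rho = 0.39). The share of all gene pairs that would pass was not computed. The adipocyte marker *Adipoq* had r of 0.66 to 0.87 with these 6 genes, 0.23 with *Vwf* and 0.02 with *Eng*. Whether such joint variation is particular to endothelial genes was not tested.

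*Vwf* and *Eng* did not share in this. None of the 7 pairs of *Vwf* passed (r from -0.10 to 0.51), and none of the 7 pairs of *Eng* (r from -0.23 to 0.37). The pair of *Vwf* with *Pecam1* had r = 0.51 and rho = 0.33, and r = 0.04 without the 2 libraries farthest from the median of *Pecam1*. The libraries of the HFD-fed fl/fl group lay on both sides of the first component. Those of both chow-fed groups did so too, so leaving out the HFD-fed fl/fl group does not remove that spread. Without the HFD-fed fl/fl group, over the 18 other libraries, 14 pairs passed for r and 11 for rho, all of them among the same 6 genes, with a median r of 0.71 over the 15 pairs. With the 19 libraries 12 passed for r and 11 for rho (11 for both), 1 of them being *Vwf* with *Pecam1* (r = 0.75).

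**Figure D4:**
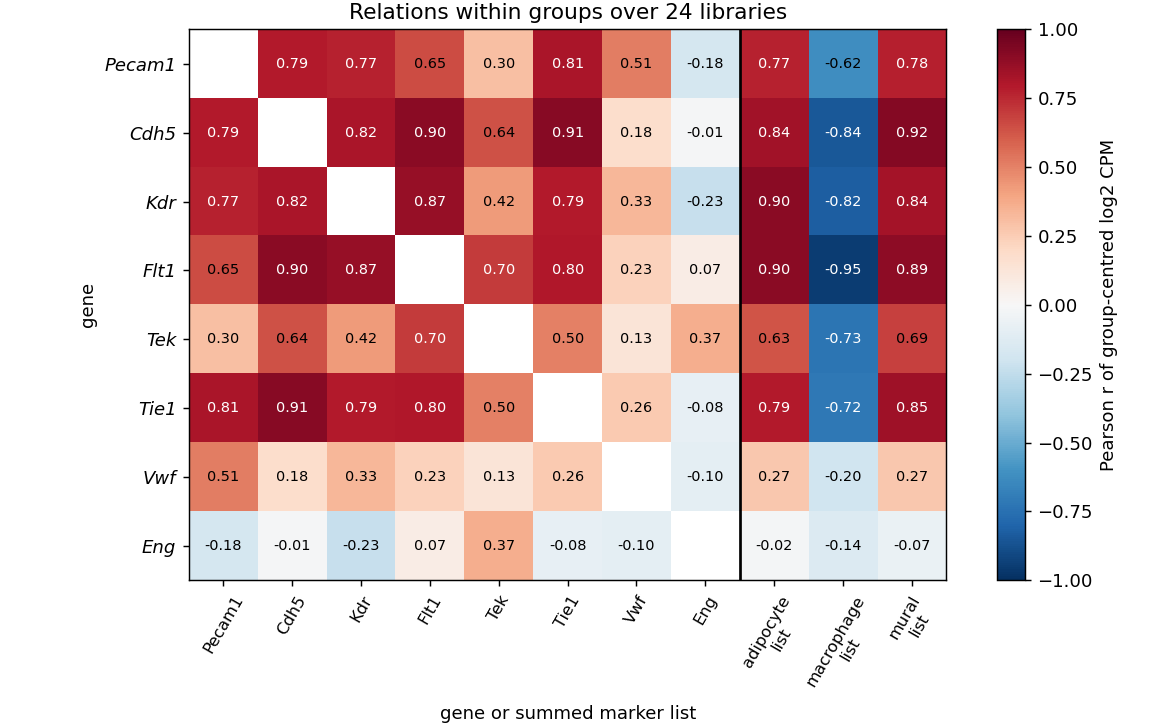
Pearson's r of group-centred log2 CPM over 24 libraries between members (left of the line, both axes genes) and between members and 3 summed marker lists (right of the line). Pairs of the first 6 genes run from 0.30 to 0.91, whereas rows of *Vwf* and *Eng* are pale, and the macrophage column is negative for the first 6 genes.

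The same 6 genes followed the summed markers of other cells within groups, which were compared after the values were known. With the summed adipocyte list their r ran from 0.63 (*Tek*) to 0.90 (*Flt1*) and rho from 0.58 to 0.86. With the summed macrophage list r ran from -0.95 (*Flt1*, rho = -0.94) to -0.62 (*Pecam1*, rho = -0.73). With the summed mural list r ran from 0.69 (*Tek*) to 0.92 (*Cdh5*), and every relation of the 6 genes with the 3 lists passed (permutation within groups over 24 libraries, adjusted p between 2.67e-05 and 0.0044 for r over 24 relations). The mural sum rests mostly on a few genes. In chow-fed AKO mice *Acta2*, *Mcam* and *Rgs5* averaged 296, 212 and 205 CPM, beside 884 CPM for the list. *Rgs5* had r of 0.64 to 0.88 with the 6 genes, but *Pdgfrb* of the same list only -0.20 (*Tek*) to 0.16 (*Pecam1*). Mural genes therefore did not all follow the members. The share of all genes that would pass with these lists was not computed. Without the 2 libraries farthest from the median of a list, r still lay between 0.49 and 0.86 for adipocyte, -0.92 and -0.61 for macrophage and 0.68 and 0.89 for mural markers. Without the HFD-fed fl/fl group it was 0.68 to 0.89, -0.94 to -0.53 and 0.68 to 0.90. *Vwf* had r = 0.27, -0.20 and 0.27 with the 3 lists and *Eng* -0.02, -0.14 and -0.07, and none of these passed. All values of a library are shares of 1 total, and whether the members or the other cells differed between these mice cannot be told apart.

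**Figure D5:**
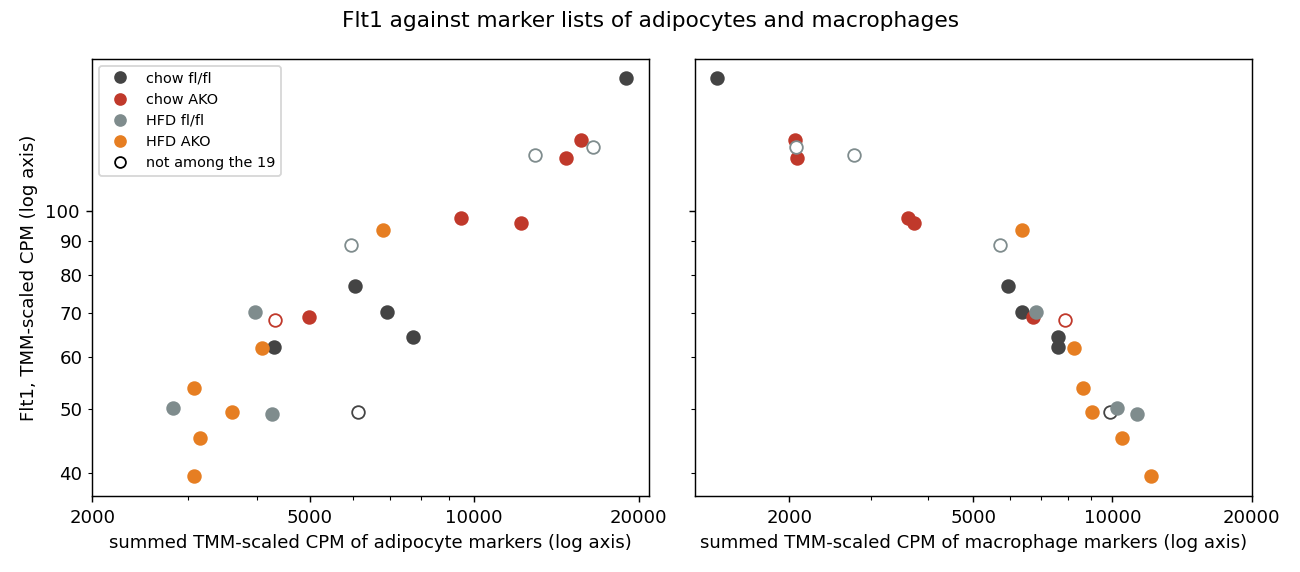
*Flt1* (vertical log axis, TMM-scaled CPM) against the summed adipocyte list (left) and the summed macrophage list (right, both horizontal log axes in CPM) in 24 libraries, with open circles for the 5 libraries outside the set of 19. *Flt1* ran from 39.6 to 159 CPM, higher with more adipocyte and lower with more macrophage signal, and the 4 groups lie along 1 band.

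Of the genes that are not members, those whose group-centred levels had the highest mean r with the 8 members were *Arhgef10* (0.67), *Car4* (0.67), *Mmrn2* (0.67), *Hspa12b* (0.66) and *Smoc1* (0.66). *Car4* is a carbonic anhydrase of capillary endothelium and *Mmrn2* an endothelial matrix protein. The single gene most like each member was *Sod3* for *Pecam1* (r = 0.93), *Nrarp*, a Notch target, for *Cdh5* (0.96), *Amotl1* for *Kdr* (0.97), *Prex2* for *Flt1* (0.97), *Epn2* for *Tek* (0.87) and *Cdh5* for *Tie1* (0.91), with *Tcim* next at 0.91. For *Vwf* it was *Eri2* (0.80) and for *Eng* *Msl1* (0.87). These are the highest of all genes tested over 24 libraries and are given as a description. *Lama4*, made by both adipocytes and endothelial cells, had its highest r with *Kdr* (0.94). It had 0.52 with *Tek*, 0.33 with *Vwf* and -0.17 with *Eng*, and a mean of 0.59 over the 8 members. The mean of the adipocyte marker *Adipoq* was 0.61.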

How the data were processed

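Per the labels and the study's methods, eWAT RNA of 24 mice was sequenced by QuantSeq, and the authors mapped and counted reads with the Lexogen pipeline on Bluebee. Used here are the raw counts that the authors deposited for each gene in each library. A second deposited table gives them as a normalized signal, each library divided by its own size factor, and supplied symbols and positions. The submitters' processing notes name R 4.0.3 and DESeq2 1.30. Gene positions are those of GRCm38: 13948 of 14067 deposited positions equal those of GENCODE release 21.

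edgeR 4.0.16 in R 4.3.3 was used on genes that reached 1 CPM in 3 or more libraries, with TMM factors, 1 coefficient per group and quasi-likelihood tests over all 15020 genes, with Benjamini-Hochberg adjustment. Fold changes carry edgeR's small prior count, and each standard error was taken from the fold change and its F statistic. The study used limma-voom after leaving out libraries that the sources used here do not name. A gene was called where the nominal p was up to 0.001, the fold 1.5 or more and the average of the higher group 2 CPM or more. Ratios were compared by two-sided exact permutation tests and relations by 100000 permutations within groups. The smallest p of an exact test of 6 against 6 mice is 0.0022.

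The members and the 18 lists were chosen with earlier results of these data known. The text names all members, *Lama4*, the list genes called in a comparison (or, where none was, the one with the lowest p) and the genes most like the members. Alternatives were 19 libraries, limma-voom (limma 3.58.1), DESeq2 1.42.0, RLE size factors, no low-count filter, adjusted p, the replicate number as a block, and each library left out in turn. limma-voom on the 19 libraries, relations over 18 libraries and relations with marker lists were added after seeing the data.

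In counts simulated for HFD against chow in fl/fl mice over 14803 genes, edgeR called 195 of 200 genes changed by 4-fold with the right sign. It also called 7 unchanged genes there, and 10 genes in a comparison simulated without change. Smaller changes, such as those of the members, were not simulated. How often these would be called is therefore not known. No 2 libraries of a group were duplicates: the chi-square per degree of freedom was at least 5.73 over 60 pairs. Depth was 5579590 to 18764516 counts per library, and p-values measure the spread between mice and the counting error together.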

Additional observations from a re-analysis of the deposited data

Results flagged for a closer look

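*Lama4* in HFD-fed AKO replicate 6 stood apart from its group, with a log2 CPM of 6.53 beside 5.61 in the nearest of the other 5 libraries. The same library was the highest of its group for *Pecam1*, *Cdh5*, *Kdr*, *Flt1* and *Tie1*, and also had the highest summed adipocyte markers (6811 CPM) and the lowest summed macrophage markers (6380 CPM) of that group. Their part in its levels was not tested. Of 36 sets of 1 gene in 1 group that were examined, this was the only one, and chance alone marks about 1 in 20 such sets.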

How the results depend on the processing

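The count of members called stayed at 0 under limma-voom, DESeq2, RLE size factors, no low-count filter and the replicate block in each of the 7 comparisons with 24 libraries. With 19 libraries it was 1 (*Cdh5*) in AKO mice on HFD against chow and 3 averaged over genotypes, and with limma-voom on 19 libraries, chosen after seeing the data, 1 in fl/fl mice, 1 in AKO mice and 3 averaged over genotypes. With an adjusted p of at most 0.05 it was 2 in AKO mice. Leaving out 1 library gave 0 to 1 members in fl/fl mice (1 without chow-fed fl/fl replicate 1) and 0 to 1 in AKO mice (1 without HFD-fed AKO replicate 6). The share of all genes called was not computed with 1 library left out, and is not given for limma-voom on 19 libraries. The number of pairs related by both r and rho was 13 with RLE size factors, 11 with 19 libraries and 11 with 18.

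Over all genes, counts moved by more than 1.5 times in these settings. For HFD against chow in fl/fl mice they were 26 with 24 libraries, 1750 with 19 and 60 with DESeq2, and in AKO mice 619, 2332 and 1315. For AKO against fl/fl on HFD they were 26, 84 and 81, on chow 17, 31 and 41, for the interaction 58, 101 and 148, averaged over genotypes 338, 3186 and 632, and averaged over diets 5, 11 and 12. The groups share replicate numbers, but the labels tie no number to a litter or cage: of 36 same-numbered pairs of libraries 15 had a correlation of their deviations over 0.1, with a median of 0.0012, and 0 of 24 libraries correlated best with its own number in every other group. The replicate block gave 19 genes in fl/fl mice, 457 in AKO mice, 19 on HFD, 10 on chow and 32 for the interaction, and called 0 members in each.

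With 19 libraries the sign of the log2 value turned for *Flt1* -0.61, *Tek* -0.11 and *Tie1* -0.41 in HFD against chow in fl/fl mice, for *Pecam1* 0.41, *Cdh5* 0.36, *Kdr* 0.64, *Flt1* 0.018, *Tie1* 0.32 and *Lama4* 0.14 in AKO against fl/fl on HFD, for *Kdr* 0.35 and *Lama4* 0.077 in the interaction, for *Kdr* 0.46, *Flt1* 0.13, *Eng* -0.031 and *Lama4* 0.10 in AKO against fl/fl over both diets. With limma-voom the sign of the log2 value turned for *Tie1* -0.013 in HFD against chow in fl/fl mice, for *Kdr* 0.041 and *Tek* 0.012 in AKO against fl/fl over both diets. With limma-voom on 19 libraries the sign of the log2 value turned for *Flt1* -0.54, *Tek* -0.10, *Tie1* -0.41 and *Vwf* -0.034 in HFD against chow in fl/fl mice, for *Pecam1* 0.42, *Cdh5* 0.34, *Kdr* 0.56, *Tie1* 0.27 and *Lama4* 0.11 in AKO against fl/fl on HFD, for *Kdr* 0.24 in the interaction, for *Kdr* 0.44, *Flt1* 0.14, *Tek* 0.038 and *Lama4* 0.13 in AKO against fl/fl over both diets. With DESeq2 the sign of the log2 value turned for *Vwf* -0.0027 in the interaction. With RLE size factors the sign of the log2 value turned for *Vwf* -0.0044 in the interaction.

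With each library left out in turn, the following results changed sign or call at least once. In HFD against chow in fl/fl mice the ranges were -0.27 to 0.089 for *Cdh5*, -0.41 to 0.12 for *Kdr*, -0.082 to 0.38 for *Flt1*, -0.084 to 0.18 for *Tek*, -0.092 to 0.16 for *Tie1*, -0.018 to 0.21 for *Vwf*, 0.44 to 0.75 for *Eng*, -0.45 to 0.065 for *Lama4* and -0.15 to 0.075 for the ratio of Tie1 to Tek. In HFD against chow in AKO mice the ranges were -1.17 to -0.83 for *Cdh5*, -0.042 to 0.16 for the ratio of Flt1 to Kdr and -0.16 to 0.057 for the ratio of Tie1 to Tek. In AKO against fl/fl on HFD the ranges were -0.25 to 0.019 for *Pecam1* and -0.32 to 0.011 for *Tie1*. In AKO against fl/fl on chow the ranges were -0.048 to 0.43 for *Lama4* and -0.085 to 0.060 for the ratio of Flt1 to Kdr. In the interaction the ranges were -0.10 to 0.13 for *Vwf*. In AKO against fl/fl over both diets the ranges were -0.041 to 0.15 for *Cdh5*, -0.18 to 0.10 for *Kdr*, -0.24 to 0.012 for *Flt1*, -0.076 to 0.056 for *Tek* and -0.0089 to 0.15 for *Eng*.

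The causes of these shifts were not tested. Every member had at least 66 counts (*Tek*) in every library, so no member was at the limit of depth.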
